A study of Caenorhabditis elegans with 6 samples.

Results

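Sphingolipid synthesis was followed through 10 genes of the nematode Caenorhabditis elegans, chosen by their WormBase symbols and matched by gene ID among the 46904 IDs in the files. They were sptl-1, sptl-2, sptl-3, hyl-1, hyl-2, lagr-1, cgt-1, cgt-2, cgt-3 and sms-1. The 3 caffeine libraries came from hermaphrodites of strain N2, the laboratory wild type, kept on agar that held 10 mM caffeine for 72 h, and the 3 control libraries from N2 hermaphrodites kept in the same way at 0 mM. Animals of both groups carried no other allele, ate OP50 bacteria at 25 °C from the last larval stage and were collected whole on day 3 of adulthood, about 300 pooled worms per replicate. The study's title concerns caffeine, lifespan and the breakdown of lipids in lysosomes. The comparison below asks whether the genes that build sphingolipids differed in RNA level between the groups.

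Sphingolipids are membrane lipids built on a long-chain base. Serine palmitoyltransferase joins serine to a fatty acyl-CoA to start the base, and in C. elegans that acyl chain is a branched one. Ceramide synthases then attach a fatty acid to form ceramide, and ceramide receives either glucose, from a ceramide glucosyltransferase, or phosphocholine, from a sphingomyelin synthase. In worms, glucosylceramide is known for its part in growth and in the apical membrane of the intestine, and the fatty acid on ceramide is known to bear on stress survival and lifespan.

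The libraries held between 40417780 and 40746556 counts. All 10 genes passed the filter on low counts, with whole-number values in every library, so the files show no division of their reads among similar genes. The groups differed in some tissue markers. The counts of higher and lower markers use the test described below. Of all tested genes, 13.8% passed it as higher and 10.5% as lower. Summed over each whole marker list, hypodermis (2 of 5 higher, 1 lower) had 465 to 563 CPM (counts relative to the library total, scaled between libraries by TMM factors) in caffeine libraries and 235.03 to 268 in control libraries. Body wall muscle (2 of 4 higher) had 348 to 480 against 257 to 287, and pharynx (2 of 2 higher) had 11.9 to 15.7 against 6.02 to 7.11. Intestine (2 of 7 higher, 3 lower) had 1613 to 1764 against 1339 to 1574. Most of the intestine sum was asp-1, at a mean of 1198 CPM with caffeine and 934 in control. The median log2 fold change over the intestine list was -0.04, and the 3 lower markers were act-5, pept-1 and elt-2. In the hypodermis sum, col-119 alone averaged 337 CPM with caffeine and 116 in control. The lower hypodermis marker, nhr-23, averaged 77.6 and 88.6. Germline and oocyte (1 of 8 lower) had 6265 to 7879 against 7591 to 7896. Neurons (1 of 4 higher, 1 lower) had 39.4 to 42.6 against 45.2 to 48.7, with a median log2 fold change of 0.10 over the list. The lower neuron marker, unc-64, averaged 20.9 CPM with caffeine and 29.5 in control, and the higher one, ric-4, averaged 7.45 and 4.84. Early embryo (1 of 4 lower) had 5.49 to 8.30 against 6.50 to 8.49, and sperm (1 of 5 tested lower) had 0.474 to 3.68 against 2.47 to 18.6. The summed ranges of germline and oocyte, early embryo and sperm overlapped between the groups. Markers at 0 were msp-19 and msp-142 in caffeine library 3 and rol-6 in control library 2. The part of these tissue differences in the results below was not tested. In whole animals, fewer cells of a type and less RNA per cell cannot be told apart.

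The members did not move one way. Caffeine libraries had more sptl-1, hyl-2 and cgt-2 RNA and less hyl-1 and cgt-3 RNA, by the quasi-likelihood test of edgeR at a Benjamini-Hochberg adjusted p under 0.05 over 14200 genes. Of the 10 genes, 5 therefore passed the test, where 24.3% of all tested genes did. The 3 that rose stand beside a background of 13.8% of tested genes, and the 2 that fell beside 10.5%. Changes were small apart from cgt-2, the only member past 2-fold, where 8.15% of tested genes passed the test with such a change. The median absolute log2 fold change was 0.22 over the members and 0.23 over all tested genes, and the signed medians were 0.01 and 0.00. In 7 members the groups did not overlap, against 44.3% of tested genes. The count of 5 depended on single libraries. It was 6 without caffeine library 1, where 32.8% of tested genes passed, 4 without caffeine library 2 (15.4% of tested genes) and 2 without caffeine library 3 (16.1%). It was 2 without control library 1 (15.4%), 3 without control library 2 (13.2%) and 2 without control library 3 (16.4%). hyl-1 and cgt-2 passed in all of these fits.

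**Figure D1:**
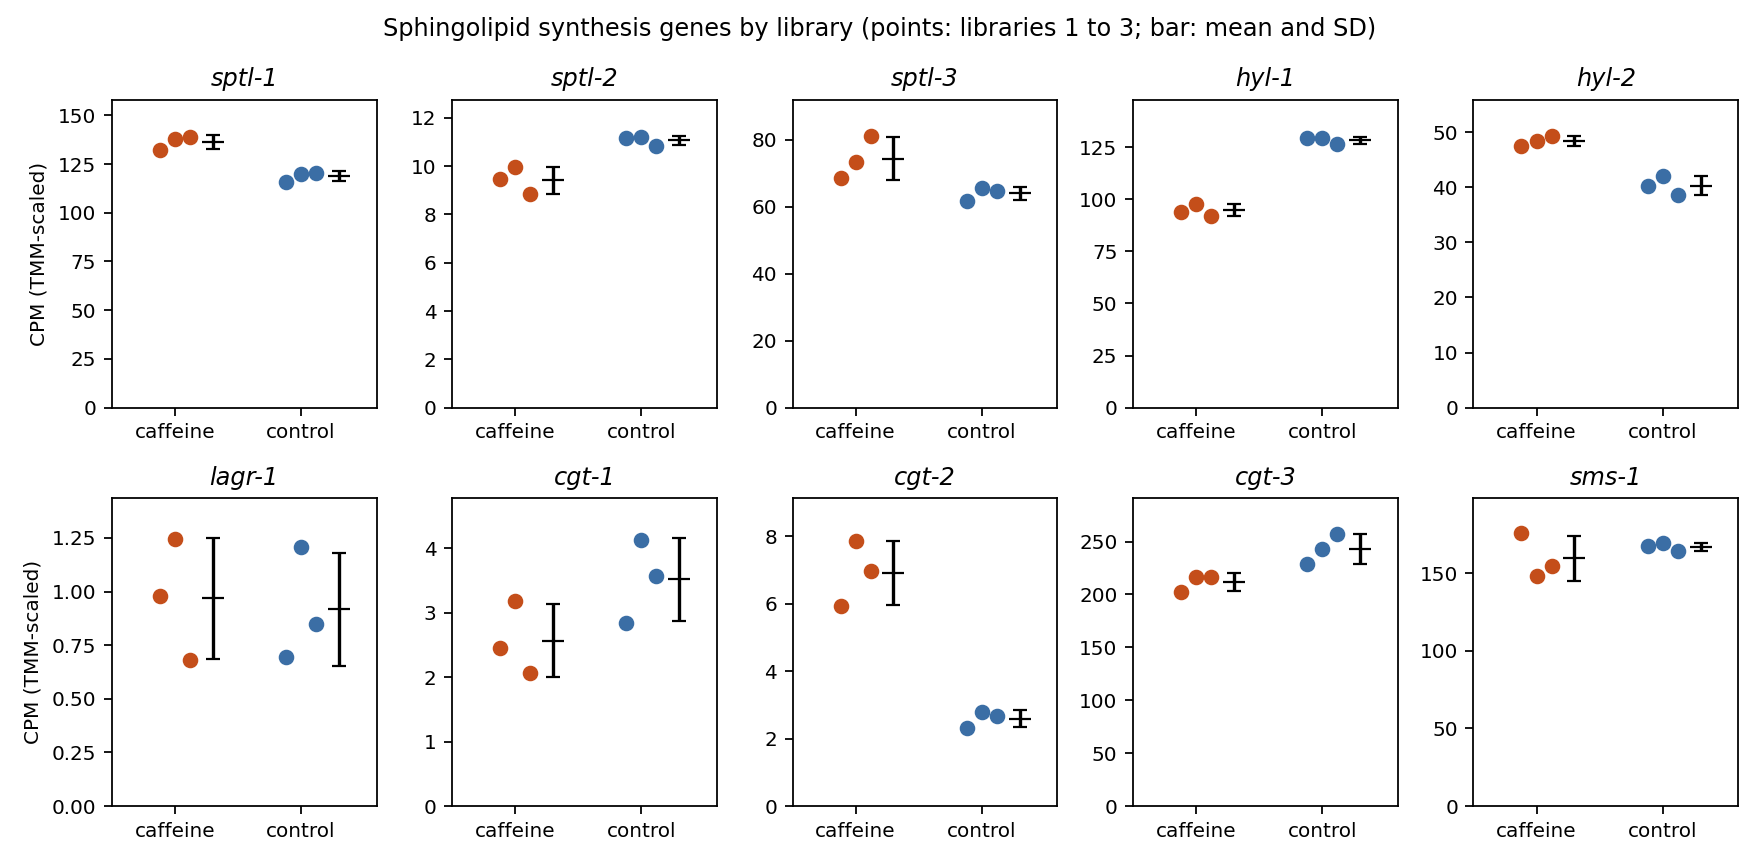
CPM of each synthesis gene in the 6 libraries, with the vertical axis from 0, caffeine in orange and control in blue; points are libraries 1 to 3 and the black mark is their mean with the SD. cgt-2 averaged 6.91 CPM with caffeine and 2.59 in control, and hyl-1 averaged 94.6 and 128 CPM, while lagr-1, cgt-1 and sms-1 overlapped between the groups.

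Serine palmitoyltransferase pairs a subunit encoded by sptl-1 with a catalytic subunit of the kind encoded by sptl-2 and sptl-3. sptl-1 (WBGene00016020, WBcel235 chromosome II, 51652 to 57570, plus strand, 3 annotated transcripts) had 5138, 5964 and 5730 counts in caffeine libraries and 4680, 4769 and 4828 in control libraries. In CPM these were 132, 138 and 139 with caffeine, against 116, 120.1 and 121 in control. Each caffeine library lay above each control library. The gene rose by a log2 fold change of 0.20 (SE 0.05, edgeR adjusted p 0.0203), or 1.15-fold. With 1 library left out, its edgeR adjusted p was 0.0722 without caffeine library 3, 0.0989 without control library 1, 0.0731 without control library 2 and 0.0670 without control library 3.

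sptl-3 (WBGene00011932, chromosome V, 13893325 to 13896415, plus strand) was the more abundant catalytic subunit gene. It had 68.4, 73.4 and 81.1 CPM with caffeine, against 61.8, 65.5 and 64.6 CPM in control. The groups did not overlap, and caffeine library 3 was the highest. Its log2 fold change of 0.22 (SE 0.07) had an edgeR adjusted p of 0.0576, and the 95% interval of the change, unadjusted for multiple tests, ran from 0.05 to 0.38. It passed in 3 of 15 alternatives, at 0.0153 without caffeine library 1, 0.0470 with upper-quartile scaling and 0.0443 with a filter at a mean of 50 counts. Its edgeR adjusted p reached 0.179 without control library 1. Without caffeine library 3 the log2 fold change was 0.15, at an edgeR adjusted p of 0.159.

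The 2 protein-coding neighbours of sptl-3 on the chromosome changed far more than it did. cyp-35C1, a cytochrome P450 gene on the minus strand, lies 247 bp past the end of sptl-3 and had a log2 fold change of 5.15 (SE 0.27). lbp-8, a fatty acid binding protein gene on the plus strand, ends 1960 bp before it and had a log2 fold change of 4.06 (SE 0.42). Whether the authors counted by strand is not given in the sources used here, and reads running past the ends of these genes were not tested as a part of the sptl-3 value.

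sptl-2 (WBGene00018398, chromosome V, 8017207 to 8021715, plus strand) stood at a lower level and on the other side of 0. It had 9.46, 9.94 and 8.84 CPM with caffeine, against 11.1, 11.2 and 10.8 CPM in control. Every caffeine library lay below every control library. The log2 fold change was -0.23 (SE 0.09), with an edgeR adjusted p of 0.0952 and an unadjusted 95% interval from -0.44 to -0.03, and no alternative brought it past the threshold.

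The balance between the 2 catalytic subunit genes was compared within each library, where scaling has no effect. There were 7.23, 7.38 and 9.18 counts of sptl-3 per count of sptl-2 with caffeine, against 5.54, 5.84 and 5.96 in control. The ratios did not overlap, and the log2 ratio differed by 0.45 between caffeine and control (means 2.98 ± 0.19 and 2.53 ± 0.05, SD, n = 3 each). The two-sided exact permutation p was 0.1, the smallest that 3 against 3 libraries allow, and 0.15 after Benjamini-Hochberg adjustment over 3 ratios. Per exon length, sptl-2 and sptl-3 together stood at 0.447, 0.460 and 0.494 of the sptl-1 level with caffeine, against 0.473, 0.482 and 0.472 in control, so the balance of catalytic to partner subunit RNA overlapped between the groups.

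The RNA of the 2 main ceramide synthase genes changed in opposite directions, with the more abundant hyl-1 lower and hyl-2 higher with caffeine. hyl-1 (WBGene00002043, chromosome IV, 8539123 to 8544412, plus strand) encodes a synthase that favours the longer very-long-chain fatty acids. It had 3645, 4240 and 3796 counts with caffeine, against 5226, 5130 and 5061 in control, which is 94.0, 97.8 and 92.1 CPM against 129, 129 and 126 CPM. The lowest control library stood well above the highest caffeine library. hyl-1 fell by 26.3%, a log2 fold change of -0.44 (SE 0.05, edgeR adjusted p 0.000566), and it passed in all 15 alternatives, at log2 fold changes from -0.46 to -0.40.

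hyl-2 (WBGene00002044, chromosome X, 4696754 to 4699461, minus strand, 1 annotated transcript) encodes a synthase that favours somewhat shorter very-long chains and is known for its role in survival without oxygen. It had 47.4, 48.3 and 49.3 CPM with caffeine, against 40.3, 42.1 and 38.5 CPM in control. The groups did not overlap. hyl-2 rose 1.20-fold, a log2 fold change of 0.26 (SE 0.06, edgeR adjusted p 0.0162). Its edgeR adjusted p was 0.0527 without caffeine library 3, 0.0617 without control library 1 and 0.0669 without control library 3.

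The ratio of hyl-1 to hyl-2 counts did not overlap between the groups. It was 1.98, 2.02 and 1.87 with caffeine, against 3.21, 3.07 and 3.28 in control. The log2 ratio differed by -0.70 between caffeine and control (means 0.97 ± 0.06 and 1.67 ± 0.05, SD, n = 3 each; exact two-sided permutation p = 0.1, the smallest possible, 0.15 adjusted over 3 ratios). Leaving out any 1 library moved this difference only between -0.73 and -0.67. lagr-1 (WBGene00006505, chromosome I, 13724577 to 13732046, minus strand), the third ceramide synthase gene, had 38, 54 and 28 counts with caffeine, against 28, 48 and 34 in control. These counts overlapped, and the log2 fold change of 0.08 (SE 0.33) carried an unadjusted 95% interval from -0.67 to 0.83.

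**Figure D2:**
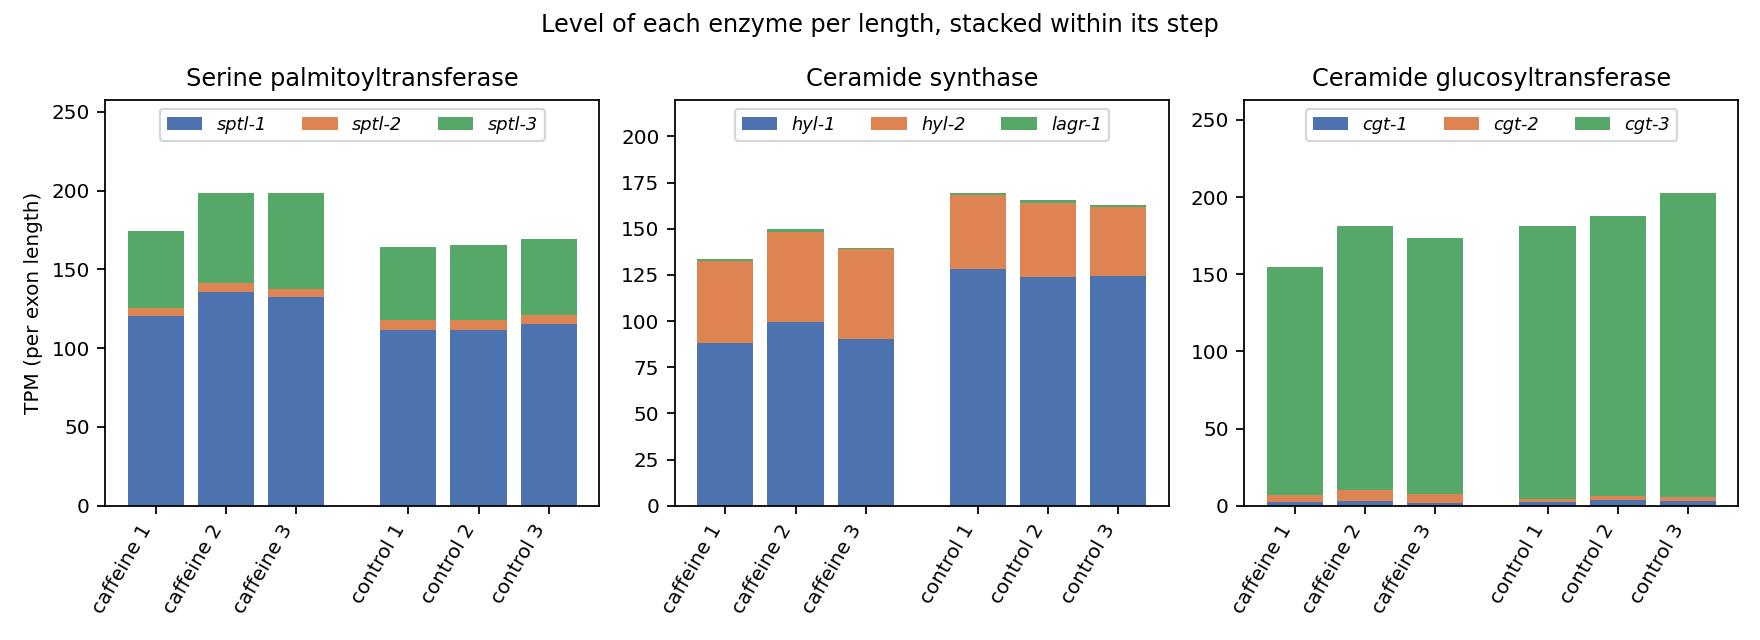
Stacked level of each enzyme gene in TPM (the usual length-normalised unit, from counts divided by exon length) for the 3 steps with several genes, one bar per library, caffeine left of control. hyl-2 made up 33.6% of ceramide synthase TPM with caffeine and 23.7% in control, sptl-1 and sptl-3 dominated their step, and cgt-3 dominated the glucosyltransferases in all 6 libraries.

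Ceramide glucosyltransferases held both the largest change and the most abundant member. cgt-2 (WBGene00017625, chromosome X, 17695232 to 17701743, plus strand) had 230, 340 and 287 counts with caffeine, against 93, 111 and 107 in control. In CPM it had 5.93, 7.84 and 6.97 with caffeine and 2.30, 2.80 and 2.67 in control. The lowest caffeine library was above the highest control library by a wide margin. cgt-2 rose 2.67-fold, a log2 fold change of 1.42 (SE 0.15, edgeR adjusted p 0.000473). It passed in all 15 alternatives, at log2 fold changes from 1.32 to 1.51.

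cgt-3 (WBGene00019127, chromosome II, 5911324 to 5916910, plus strand, 5 annotated transcripts) encodes a glucosyltransferase that, together with cgt-1, worms need to pass early larval life. It had 202, 216 and 217 CPM with caffeine, against 228, 243 and 257 CPM in control. The groups did not overlap. cgt-3 fell by 12.9%, a log2 fold change of -0.20 (SE 0.06), and its edgeR adjusted p of 0.0492 lay at the threshold. It lost the call in 12 of 15 alternatives. Without 1 library the edgeR adjusted p lay between 0.0579 (caffeine library 1 left out) and 0.156 (control library 3 left out), and with scaling by library totals it was 0.167.

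cgt-1 (WBGene00011517, chromosome V, 15886719 to 15888851, minus strand) had 95, 138 and 85 counts with caffeine, against 115, 164 and 143 in control. Caffeine library 2 lay among the control values. The log2 fold change was -0.45 (SE 0.21, edgeR adjusted p 0.149) with an unadjusted interval from -0.94 to 0.03. The log2 ratio of cgt-1 to cgt-3 counts overlapped between the groups, at -6.39 ± 0.31 with caffeine and -6.12 ± 0.23 in control (SD, n = 3 each; exact two-sided permutation p = 0.4, also 0.4 adjusted).

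cgt-3 stood far above the other two in every library. Per exon length, cgt-2 made up 3.06%, 3.75% and 3.36% of glucosyltransferase TPM with caffeine, against 1.07%, 1.22% and 1.11% in control. cgt-3 made up 95.2% ± 0.563 with caffeine and 97.2% ± 0.341 in control (SD, n = 3 each). The step as a whole summed to 155, 181 and 174 TPM with caffeine, against 181, 188 and 202 TPM in control. The highest caffeine value and the lowest control value lay side by side, at 181.1 and 181.3 TPM.

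sms-1 (WBGene00004892, chromosome IV, 11482662 to 11498174, minus strand, 4 annotated transcripts) encodes a sphingomyelin synthase. It had 176, 148 and 155 CPM with caffeine, against 168, 169 and 164 CPM in control. Caffeine library 1 lay above all controls and the other two caffeine libraries below them. The log2 fold change was -0.07 (SE 0.07, edgeR adjusted p 0.500, interval -0.22 to 0.09). It passed in 1 of 15 alternatives, without caffeine library 1, at -0.14 and an edgeR adjusted p of 0.0414. The edgeR adjusted p reached 0.904 without caffeine library 2.

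Levels of the 10 genes were ordered per exon length, in TPM. With caffeine the order was cgt-3 (162 TPM), sptl-1 (129.7), sms-1 (109), hyl-1 (92.7), sptl-3 (55.6), hyl-2 (47.4), cgt-2 (5.78), sptl-2 (5.07), cgt-1 (2.39) and lagr-1 (1.14). In control it was cgt-3 (185 TPM), hyl-1 (125), sms-1 (114), sptl-1 (113), sptl-3 (47.7), hyl-2 (39.4), sptl-2 (5.95), cgt-1 (3.26), cgt-2 (2.15) and lagr-1 (1.08). Neighbours whose library values overlapped were sptl-3 with hyl-2 and cgt-2 with sptl-2 in caffeine libraries, and sms-1 with sptl-1 in control libraries. hyl-1 thus stood at rank 4 with caffeine and 2 in control, and cgt-2 at 7 with caffeine and 9 in control. The genes fell into an abundant set of 6, between 37.8 and 197 TPM over all libraries, and a scarce set of 4, between 0.804 and 6.79 TPM. Among all tested genes, cgt-3 stood at percentile 91.4 of TPM with caffeine and 93.1 in control, and lagr-1 at percentile 18.0 with caffeine and 18.6 in control.

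Summed per step, serine palmitoyltransferase genes had 175, 198.2 and 198.2 TPM with caffeine, against 164, 166 and 169 TPM in control. Ceramide synthase genes had 134, 150.0 and 140 TPM with caffeine, against 169, 165 and 163 TPM in control. The sums of these 2 steps did not overlap between the groups and lay on opposite sides. They were higher with caffeine for the entry step and lower for ceramide synthases. Glucosyltransferase sums did not overlap either, by a narrow margin, at up to 181.1 TPM with caffeine and from 181.3 TPM in control. The TPM of sms-1 overlapped. TPM values were not scaled by TMM factors. The sums were not tested, and 44.3% of single tested genes also had groups that did not overlap. sptl-1 made up 68.2% of the entry-step sum with caffeine and 67.8% in control. hyl-2 held 33.3%, 32.7% and 34.7% of ceramide synthase TPM with caffeine, against 23.6%, 24.4% and 23.2% in control.

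Other genes of the pathway were read from 4 related lists of 37 symbols, of which 35 were matched and tested. In the list of further synthesis and modification enzymes, 1 of 8 rose and 2 fell, beside 13.8% and 10.5% of all tested genes, with a median log2 fold change of -0.01 against 0.00 over all tested genes. The count of 3 called in this list was 5 by DESeq2 and without caffeine library 1, 1 without caffeine library 3 or control library 3, and 0 without control library 2. ttm-5, a relative of the sphingolipid desaturase that puts the double bond into ceramide, had 9.95, 11.1 and 10.7 CPM with caffeine, against 13.3, 15.4 and 14.7 CPM in control. It fell by a log2 fold change of -0.45 (SE 0.10, edgeR adjusted p 0.0117; 0.0576 without control library 2).

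Of the sphingomyelin synthase relatives, those that passed the test differed in direction. A further relative, sms-3, did not pass it (log2 fold change -0.24, SE 0.08, edgeR adjusted p 0.0564), and its groups did not overlap. sms-2 had 20.1, 15.2 and 19.1 CPM with caffeine, against 23.8, 25.5 and 23.8 CPM in control, and fell at a log2 fold change of -0.43 (SE 0.11, edgeR adjusted p 0.0261). Its call was lost without caffeine library 3 (0.0508), control library 1 (0.0627), control library 2 (0.0924) or control library 3 (0.0540). sms-5 rested on 57, 60 and 92 counts with caffeine, against 35, 22 and 28 in control, and rose at a log2 fold change of 1.26 (SE 0.29, edgeR adjusted p 0.0172). That call was lost without caffeine library 3 (0.0608), control library 2 (0.0590) or control library 3 (0.0505).

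In the list of genes linked to the sugar chain on glucosylceramide, 1 of 5 passed the test and rose, beside 13.8% of all tested genes. The median log2 fold change was 0.03 over the list. bre-5, a glycosyltransferase whose loss makes worms resistant to a bacterial pore-forming toxin, had 27.9, 34.9 and 35.5 CPM with caffeine, against 25.2, 23.1 and 25.4 CPM in control. It rose at a log2 fold change of 0.41 (SE 0.10, edgeR adjusted p 0.0224). The edgeR adjusted p became 0.0751 without caffeine library 2, 0.0745 without caffeine library 3, 0.0592 without control library 1 and 0.0878 without control library 2.

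In the breakdown list 5 of 10 tested genes were higher and 1 lower, beside 13.8% and 10.5% of all tested genes, with a median log2 fold change of 0.58 against 0.00 over all tested genes. The glucosylceramidase gene gba-2 had 1758, 2387 and 2582 counts with caffeine, against 63, 98 and 84 in control (log2 fold change 4.73, SE 0.18). The sphingomyelinase gene asm-3 had 2938, 3665 and 3846 counts with caffeine, against 527, 469 and 299 in control (2.97, SE 0.19). asm-2, of the same family, had a log2 fold change of 1.41, the acid ceramidase gene asah-1 had 1.06 and gba-1 had 1.05. gba-4 fell at -0.76, with 838, 814 and 788 counts with caffeine and 1497, 1314 and 1231 in control. The edgeR adjusted p of these 6 genes was at most 0.00103, and each of them passed in all 15 alternatives. The 4 breakdown genes not past the threshold had log2 fold changes from -0.16 to 0.11. Over the whole list, summed CPM was 411, 457 and 468 with caffeine, against 277, 265 and 261 in control, while the summed CPM of the 10 synthesis genes was 738, 743 and 752 with caffeine, against 760.4, 788 and 789 in control. No test of synthesis against breakdown genes as sets was made.

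**Figure D3:**
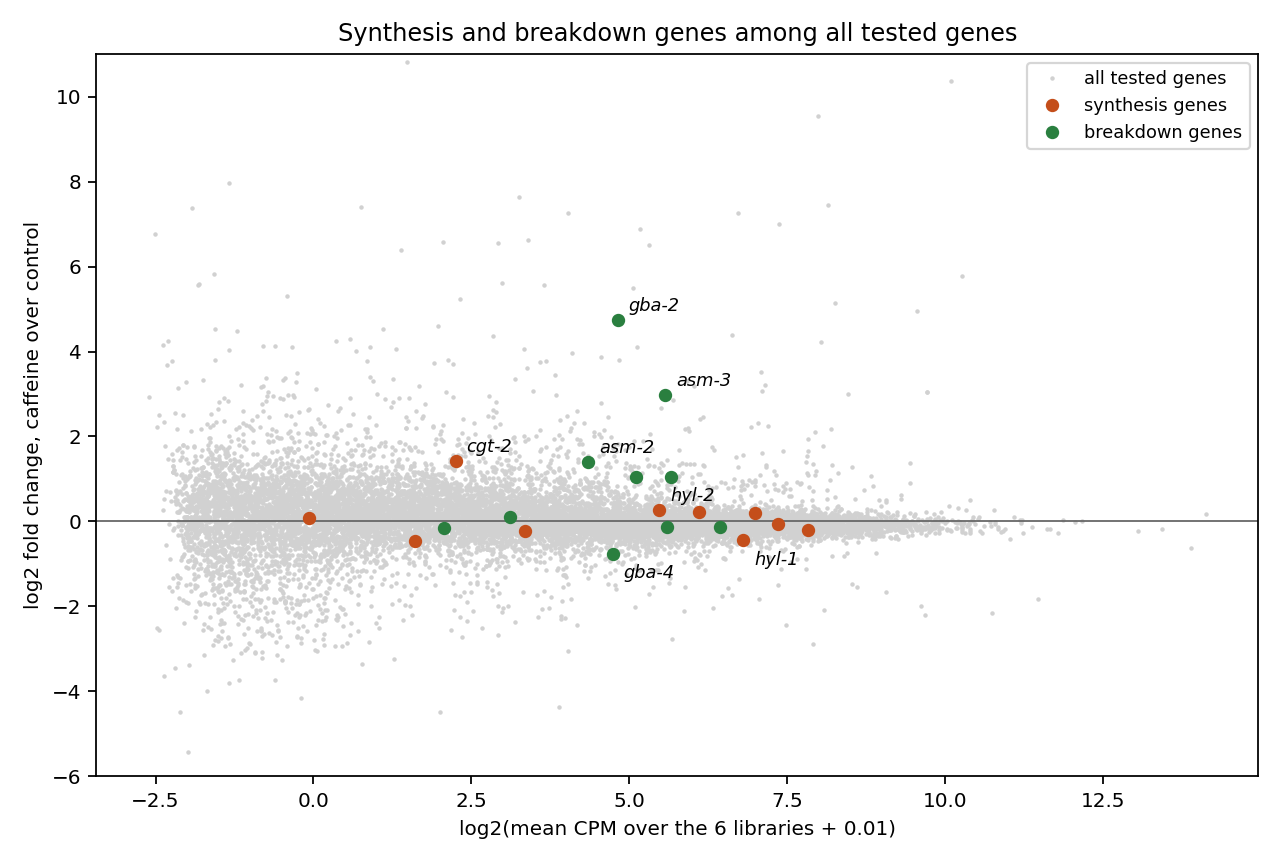
Log2 fold change (caffeine over control) against log2 mean CPM for all tested genes in grey, with the 10 synthesis genes in orange and the 10 breakdown genes in green. Synthesis genes lie near 0 apart from cgt-2 at 1.42, and 5 breakdown genes lie between 1.05 and 4.73.

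The list for supply of branched acyl chains, from leucine breakdown to fatty acid elongation, had 1 of 12 tested genes higher and 1 lower, a share called of 16.7% beside 24.3% of all tested genes, with a median of 0.07. The count of 2 called was 5 with upper-quartile scaling, with library totals only and with a filter at a mean of 50 counts, and 4 without caffeine library 1 or 2. bcat-1, the branched-chain aminotransferase gene at the head of that route, had 86.0, 93.0 and 81.1 CPM with caffeine, against 124, 126 and 118 CPM in control, and fell at a log2 fold change of -0.50 (SE 0.06, edgeR adjusted p 0.00110). elo-6, a fatty acid elongase gene needed for branched chains, had 117, 115 and 190.03 CPM with caffeine, against 81.3, 75.7 and 80.0 CPM in control. It rose at 0.83 (SE 0.18, edgeR adjusted p 0.0127), and at 0.55 without caffeine library 3, the highest of the 6. Both genes passed in all 15 alternatives. The other 10 genes had log2 fold changes from -0.23 to 0.20.

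**Figure D4:**
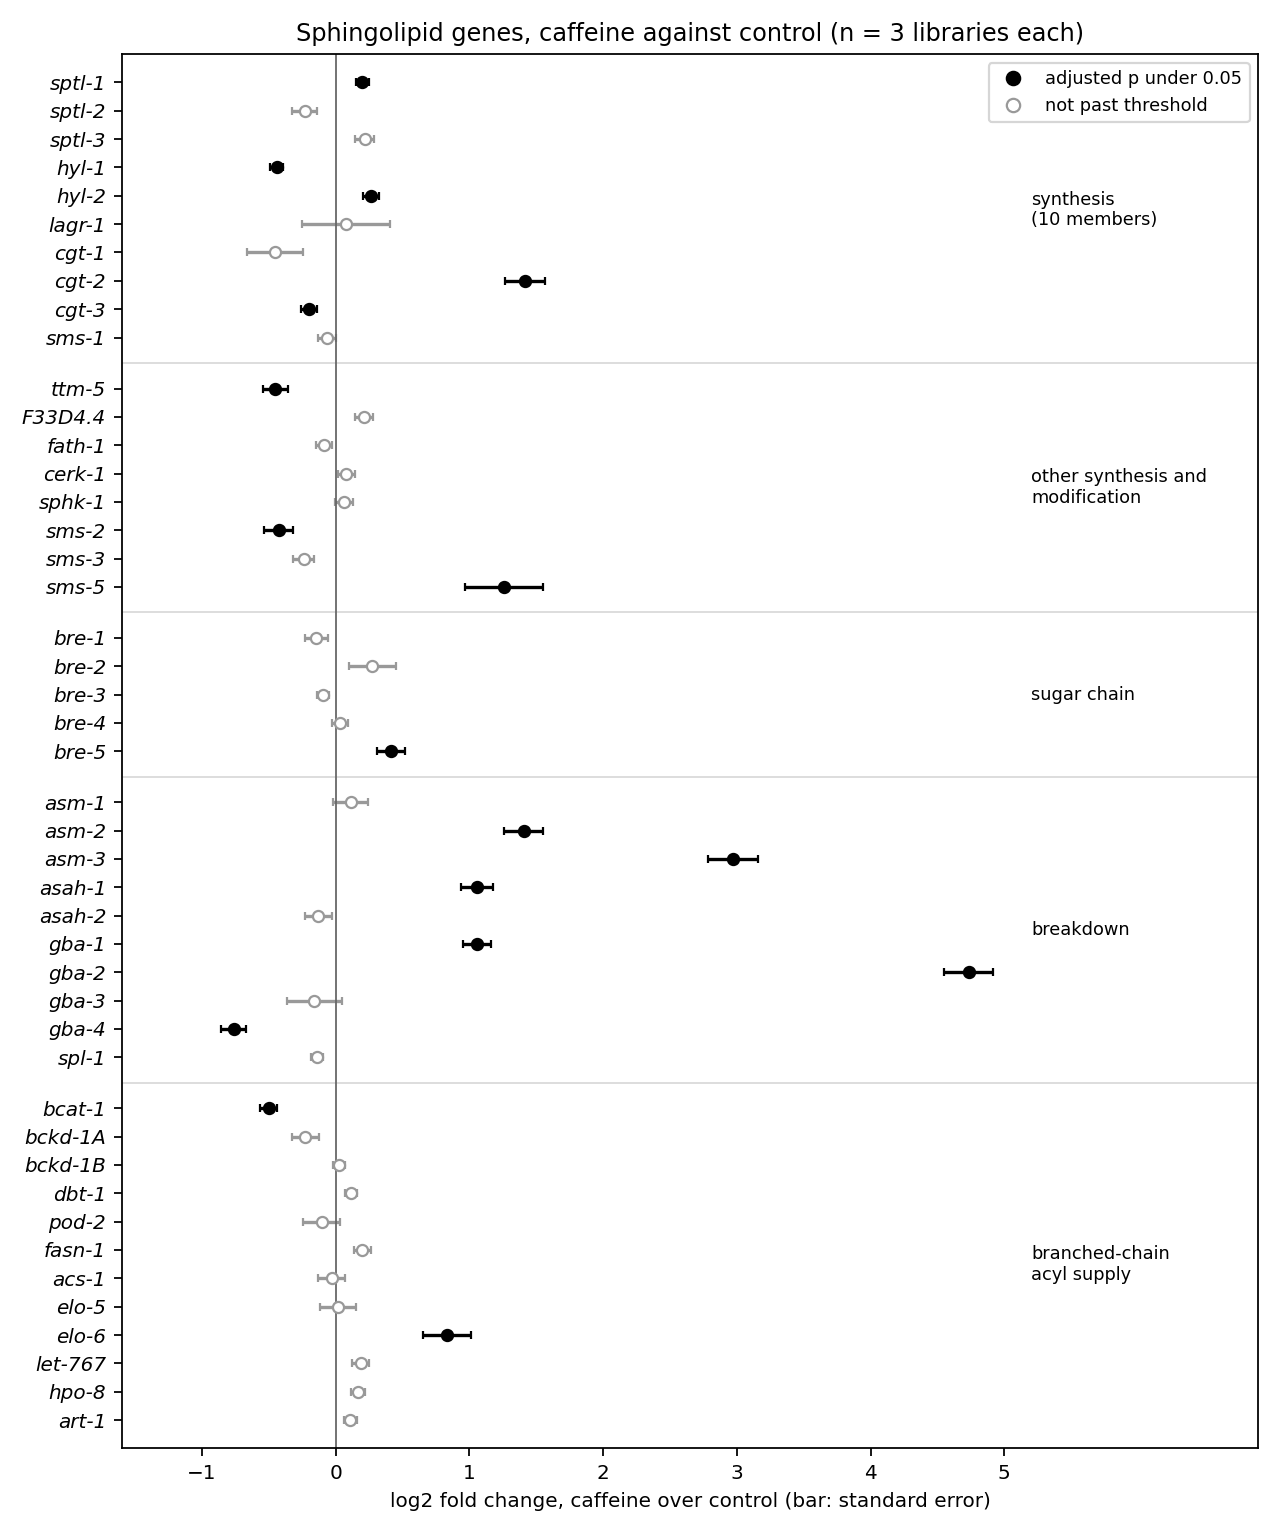
Log2 fold change (caffeine over control) with its standard error for the 10 synthesis genes and the 35 tested genes of the related lists; filled points passed an edgeR adjusted p under 0.05. In the synthesis list points lie on both sides of 0, from -0.45 for cgt-1 to 1.42 for cgt-2, and in the breakdown list they reach 4.73 for gba-2.

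Profiles most like those of the 5 members that passed the test were sought among the 9812 genes that averaged 100 counts or more. Likeness was the root mean square difference of log2 CPM over the 6 libraries, each profile centred on its own mean, where a smaller value is more alike. The closest genes lie below the median because they were picked that way, so the medians only give a scale. Not all of the genes named here passed the test themselves. hyl-1 was closest to moc-2 (0.0314), R09H10.5 (0.0383) and Y71G12B.30 (0.0426), against a median of 0.237 over all genes compared. cgt-2 was closest to chil-22 (0.0845), B0457.2 (0.0881) and Y105C5B.5 (0.104), against a median of 0.731. hyl-2 was closest to K12H4.5 (0.0198), vha-3 (0.0334) and wrt-5 (0.0336), against a median of 0.206. sptl-1 was closest to F49E8.8, pes-9 and nuo-4 (0.0189 to 0.0201, median 0.184), and cgt-3 to C29E4.11, Y73B6BL.27 and ubc-7 (0.0208 to 0.0247, median 0.165).

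The genes lie on chromosomes I, II, IV, V and X, and none neighbours another. Besides sptl-3, the member closest to a neighbour that passed the test was sptl-1, which ends 99 bp before ascc-1 on the same strand (log2 fold change 0.24, SE 0.06, edgeR adjusted p 0.0219). The neighbours of hyl-1, hyl-2, cgt-2 and cgt-3 did not pass it. Exons of cgt-3 overlap a piRNA gene and those of sms-1 a non-coding RNA gene, each on the same strand.

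**Figure D5:**
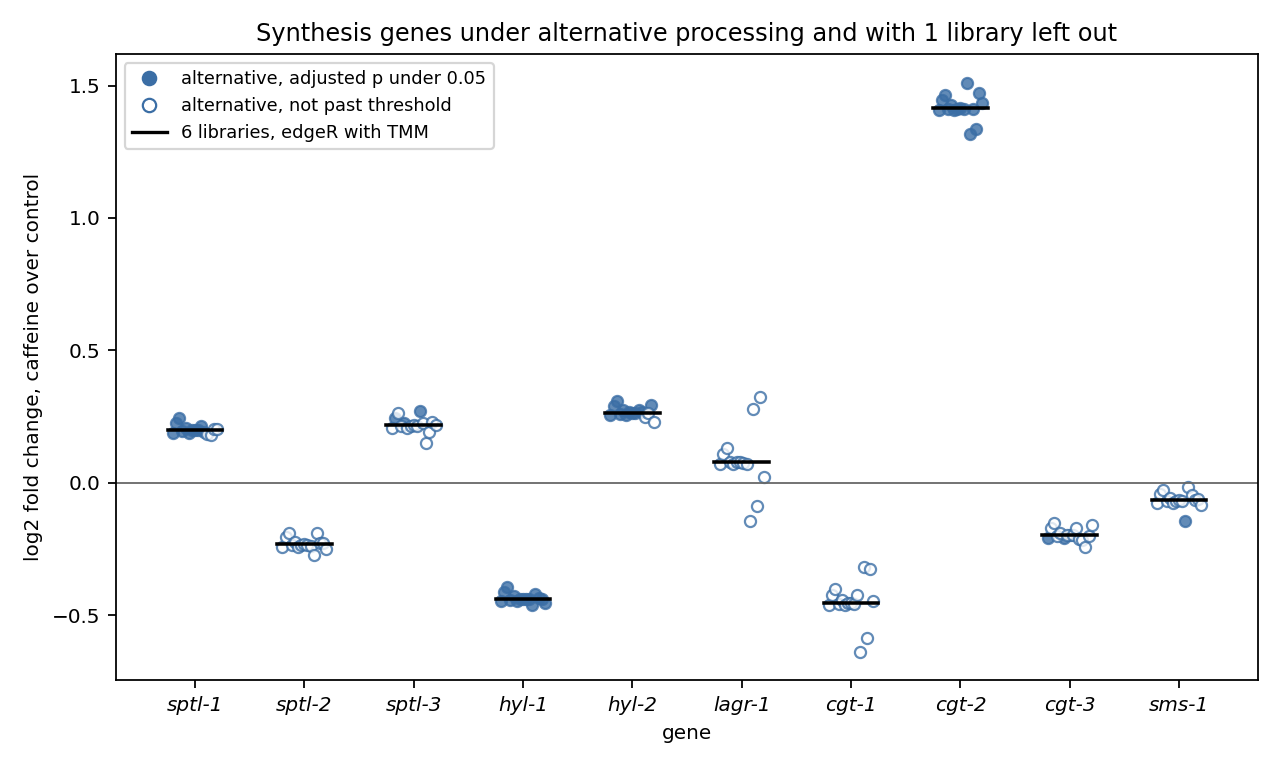
Log2 fold change of each synthesis gene under 9 other ways of processing and with each of the 6 libraries left out (points, filled where the adjusted p is under 0.05), around the value from all libraries (black line). hyl-1 and cgt-2 are filled throughout, cgt-3 in 3 of 15 and sptl-1 in 11 of 15, and lagr-1 falls on both sides of 0.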

How the data were processed

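The deposited files give an expected count per WormBase gene ID, per the file headers: an estimated number of reads, not scaled by depth or length. STAR 2.7.0e and RSEM 1.3.1 and the build WBcel235 are named in the submitters' processing notes; the annotation release and strand setting are not given in the sources used here. Groups and replicate numbers came from the sample titles. IDs were matched to symbols, and positions and exon lengths came from Ensembl release 115 (WBcel235). Counts were rounded, filtered with filterByExpr (minimum 10), scaled by TMM and compared with the quasi-likelihood test of edgeR 4.0.16 (R 4.3.3) in all 6 libraries, adjusted by Benjamini-Hochberg over 14200 genes; the script was tested on simulated data. The SE is the log2 fold change divided by the square root of F. TPM used merged exon lengths. Ratios were tested with SciPy 1.17.1. Alternatives were DESeq2 1.42.0, limma-voom 3.58.1, 3 scalings, 2 filters, unrounded counts, a replicate block and leaving out each library; transcript length was added after seeing the data. Members and lists were chosen with earlier results of these data known. Named genes are the members, the called genes of each list, and the 3 most alike profiles of each called member, with sms-3 added. No match was found for 2 listed symbols. The labels call the replicates biological but give no batch or date.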

Additional observations from a re-analysis of the deposited data

How the results depend on the processing

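hyl-1 and cgt-2 kept their direction and call in all 15 alternatives. No called member changed direction. Both direction and side of the threshold were kept throughout by 4 of 10 members and 8 of 12 called genes of the related lists. lagr-1, which was not called, ranged with 1 library left out from -0.14 without caffeine library 2, through -0.09 without control library 1, to 0.33 without control library 2. With 1 library left out, genes called higher ran from 1209 to 2264 and lower from 698 to 2512, members called from 2 to 6, and related genes called from 8 to 17; the cause was not tested. Scaling moved the median of all genes by at most 0.04. Whether the replicate numbers pair the libraries cannot be settled with 3 libraries per group. Deviations of same-numbered libraries correlated at -0.183, -0.155 and 0.249 across genes. Of the 3 caffeine libraries, 1 correlated best with the control library of its own number. A replicate block gave 1496 higher, 1074 lower and 4 members, with cgt-3 at an adjusted p of 0.0655 and sms-2 at 0.0564. Using the longest transcript as gene length left the order of the 10 levels the same in both groups. lagr-1, cgt-1 and sms-5 rested on the low counts given above. P-values reflect 3 pools of worms per group.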
